A study of Mus musculus with 12 samples.

Results

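The Zfp genes are the mouse genes named zinc finger protein followed by a number, and their peaks were taken from a table of m6A peaks of mouse liver. A peak was a member when a symbol in its annotation began with Zfp and a number. The rule found 861 of 37118 peaks, or 2.32%, and these peaks belonged to 292 of 13060 annotated genes. The rule used the name alone and no measured value. RNA came from livers of male wild-type C57BL/6 mice, aged 6 to 8 weeks per the labels, that received CdCl2 by gavage at 20 mg/kg/day (cadmium) or 0 mg/kg/day (control) for 90 days. Fragments that carry N6-methyladenosine (m6A), a methylated form of adenosine in RNA, were captured with an antibody and sequenced (MeRIP-seq). The labels describe 3 control and 3 cadmium immunoprecipitated (IP) libraries, each with an input library. The deposited counts were read as the 6 IP libraries, and the input libraries were not analysed here. A peak count therefore moves with the amount of a transcript as well as with its methylated share, and in a whole organ fewer cells of a type cannot be told apart from less RNA per cell.

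Most proteins of this family carry arrays of Cys2-His2 fingers, short folds around a zinc ion that read DNA bases. Many also carry a KRAB domain, which recruits the corepressor TRIM28 and, through it, the histone methyltransferase SETDB1, so that retroelements and imprinted regions are held silent. Such genes commonly stand in clusters of recent duplicates, and their finger arrays are typically encoded in 1 long final exon. The name Zfp also covers proteins of other kinds, among them the CCCH-type RNA-binding proteins of the Zfp36 family. N6-methyladenosine is deposited mainly in long internal exons and near stop codons and is known for its effects on RNA decay and translation.

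The Zfp transcripts were widely represented among the peaks. Of 397 protein-coding Zfp genes in the RefSeq annotation of GRCm38.p6, 289 had at least 1 peak, or 72.8%, against 48.5% of 21503 other protein-coding genes. Chromosome 7 held 70 of the 292 genes, chromosome 17 held 38, chromosome 13 held 28, and chromosomes 2 and 8 held 19 each. A further gene symbol was attached to 146 of the 861 peaks, so the transcript behind those peaks is uncertain. Of 858 peaks whose gene could be placed in RefSeq, 840 overlapped that gene and 18 did not. The 18 were 9 peaks of Zfp697, 6 of Zfp973, 2 of Zfp652 and 1 of Zfp703.

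A Zfp gene had about as many peaks as another gene, but fewer Zfp genes had a single one. The mean was 2.98 peaks per Zfp gene and 3.13 per other gene, with a median of 2 in both. A single peak was found in 58 Zfp genes, or 19.9%, against 35.7% of other genes. At the other end, 50 Zfp genes had 5 peaks or more, or 17.1%, against 19.4% of other genes. The largest number was 11, reached by Zfp91, an atypical E3 ubiquitin ligase, by Zfp106, an RNA-binding protein, and by Zfp385b and Zfp697. Zfp292 followed with 10 peaks. These are counts over 1 peak set common to all samples and carry no test.

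Zfp peaks were wider than the peaks of other genes. Their median width was 291 bp, with quartiles of 171 and 619 bp, against a median of 231 bp and quartiles of 153 and 380 bp. Peaks of 1000 bp or more made up 11.5% of Zfp peaks (99 of 861) and 4.15% of the peaks of other genes. At least 1 such wide peak was present in 92 Zfp genes, or 31.5%, against 12.1% of other genes. Peaks covered a median of 1199 bp per Zfp gene and 717 bp per other gene. The widest Zfp peaks lay in Zfp62 (3026 bp), Zfp871 (2787 bp) and Zfp646 (2732 bp).

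The gap in width grew with the level of the peak. All tested peaks were divided into 4 equal level groups by their mean CPM, a count scaled to the depth of its library. This CPM is not divided by width, so at equal signal per length a wider peak has a higher CPM. The growing gap is therefore not independent of the low signal per length of Zfp peaks described below. In the lowest level group the median width was 180 bp for Zfp peaks and 155 bp for the others. In the level groups above it the medians were 392 against 208 bp, then 665 against 265 bp. In the highest level group they were 1077 bp and 367 bp.

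**Figure D1:**
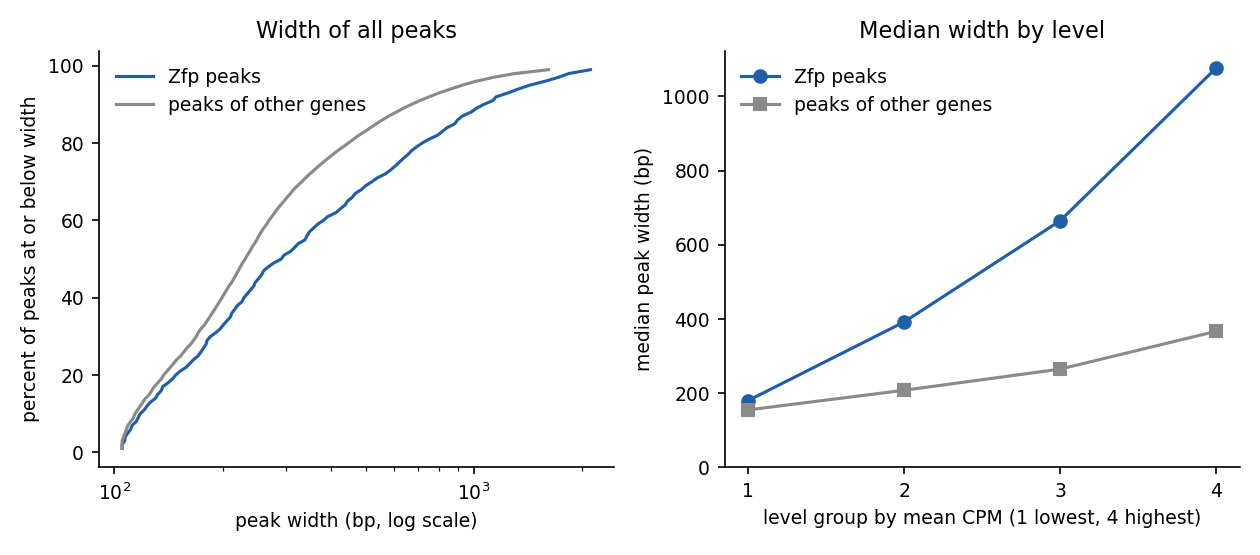
Left, percent of peaks (1st to 99th percentile) at or below a given width in bp, on a log axis, for Zfp peaks and for peaks of other genes. Right, median peak width in bp in each level group of all tested peaks by mean CPM, which is not divided by width. The Zfp curve lies to the right, and the medians part from 180 against 155 bp in the lowest level group to 1077 against 367 bp in the highest.

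Along the gene, Zfp peaks were sparse near the start. Position was taken on 595 Zfp peaks and 23393 other peaks that carried 1 symbol and lay inside their RefSeq gene. Of the Zfp peaks 9.58% lay in the first 20% of the gene's length, against 17.4% of the others. In the last 20% the shares were 48.1% and 45.4%. Of 68 wide Zfp peaks with a position, 47.1% lay in the last 20%, against 55.6% of 898 wide peaks of other genes. Gene length here includes introns, and exons and untranslated regions were not placed.

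Zfp transcripts gave low signal per length of peak. The median Zfp peak had 11.6, 12.3 and 11.4 CPM per kb of peak in control samples 1 to 3 and 13.9, 12.2 and 11.8 in cadmium samples 1 to 3. The median peak of other genes had between 29.6 and 30.4 CPM per kb. Every sample thus placed Zfp peaks 2.19- to 2.65-fold below other genes. The ratio of Zfp to other medians was 0.388 ± 0.0160 (SD, n = 3) in control and 0.421 ± 0.0315 (SD, n = 3) in cadmium, and the groups overlapped, with control sample 2 at 0.406 and cadmium sample 3 at 0.398. The lowest of the 4 level groups held 44.0% of the Zfp peaks and the highest held 11.8%.

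As a family, Zfp peaks took a similar share of the counts in both groups. The share was 0.705%, 0.907% and 0.730% in the control samples and 0.813%, 0.795% and 0.645% in the cadmium samples. The means of 0.781% ± 0.110 and 0.751% ± 0.0923 (SD, n = 3) differed by less than the spread within either group. The 2 largest peaks of the table took between 4.95% and 19.7% of a sample's counts, which moves such shares. Among the leading peaks, meaning each gene's peak of highest mean CPM, the highest control level per length was that of Zfp839, at 190 CPM per kb. It was followed by Zfp36l1 at 163, Zfp706 at 137, Zfp91 at 129 and Zfp36 at 110 CPM per kb. The Zfp839 and Zfp706 peaks were narrow, at 111 and 197 bp, and Zfp36, Zfp36l1 and Zfp91 encode regulators of mRNA decay or of protein ubiquitination.

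Few Zfp peaks were called as changed in cadmium, and a peak that was not called can still have changed. The edgeR quasi-likelihood test with Benjamini-Hochberg adjustment over 37088 tested peaks called 22 of the 861 Zfp peaks at an adjusted p below 0.05. This is 2.56% of Zfp peaks, against 6.27% of all tested peaks. Of the 22, 6 were higher in cadmium (0.697% of members, against 3.55% of all peaks) and 16 were lower (1.86%, against 2.72%). All 861 members entered the test, and none had a sample with 0 counts. A log2 change of 1 or more in either direction was found for 1.51% of Zfp peaks and 4.44% of all tested peaks. Groups did not overlap at 209 Zfp peaks, or 24.3%, against 26.8% of all peaks, so by this measure the family stood near the background. An unadjusted p below 0.05 was found at 146 Zfp peaks, or 17%, against 21.8% of all peaks.

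The count of called Zfp peaks was sensitive to single libraries and to the fit. It was 11 without control replicate 3, 10 without cadmium replicate 2 and 5 without cadmium replicate 3. The share over all tested peaks is not given for these fits, so the drop is not read as particular to Zfp peaks. Of the 22 calls, 5 held when any 1 of the 6 libraries was left out, and these were 3 peaks of Zfp972 and 2 of Zfp970. With the replicate block, which pairs samples by the labels' batch number, the count was 38, or 4.41%, against 8.48% of all peaks. Of the 22 calls, 21 were among the 38. Of the 38, 11 were higher (background 4.65%) and 27 lower (background 3.83%). DESeq2 called 52, or 6.04%, against 10% of all peaks, with all 22 among them. Of the 52, 17 were higher (background 5.55%) and 35 lower (background 4.46%). With the test restricted to peaks at or above the median count, 14 Zfp peaks were called (background 5.71%), 1 higher (background 3.08%) and 13 lower (background 2.63%). In the authors' deposited table, 5.81% of Zfp peaks, or 50, had an adjusted p below 0.05, against 9.92% of all its peaks, and all 22 were among these.

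Small shifts were more often upwards. The median log2 change was 0.06 over Zfp peaks and -0.003 over all tested peaks, and 59.0% of Zfp peaks lay above 0 against 49.5% of all. Within batches the Zfp median was 0.19, -0.07 and 0.01, so the direction did not hold in every batch. By level group, from the lowest up, the median was 0.14, 0.08, -0.03 and -0.06 for Zfp peaks. Over all peaks of the same groups it was 0.14, 0.0004, -0.04 and -0.05, so the Zfp median stood above that of all peaks mainly in the second group. The highest level group also held 11 of the 22 calls, at 10.8% of its 102 Zfp peaks against 6.9% of all its peaks. From the lowest group up, the others held 4 calls among 379 Zfp peaks (background 5.34%), 2 among 217 (background 6.65%) and 5 among 163 (background 6.18%). The 22 calls came under 11 Zfp symbols, so these shares count several peaks of the same gene.

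**Figure D2:**
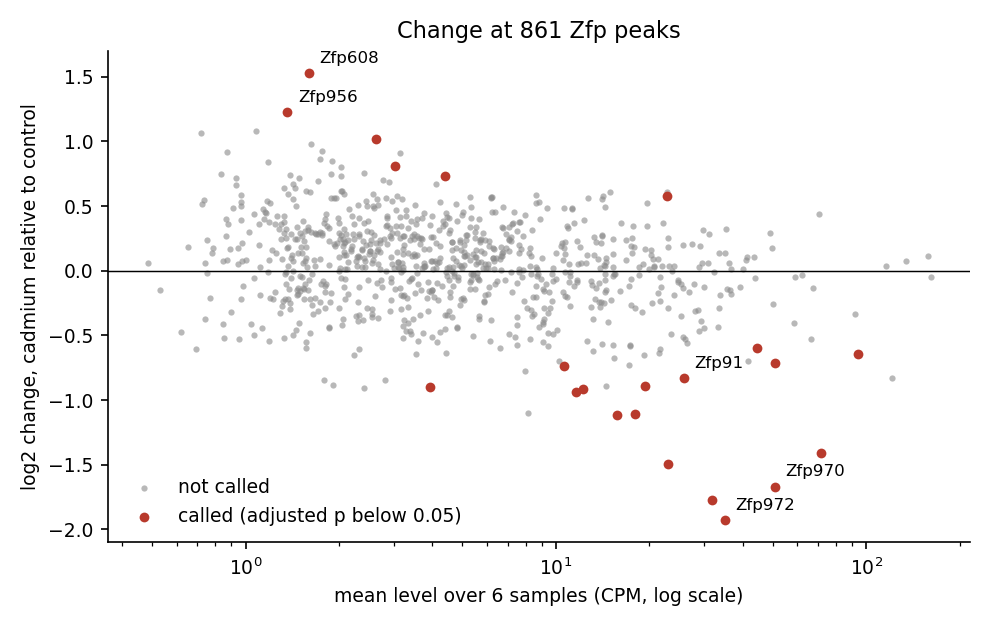
Log2 change of each of the 861 Zfp peaks, cadmium relative to control, against its mean CPM over 6 samples on a log axis. Red points are the 22 called peaks: 5 of the 6 higher ones have a mean under 5 CPM, and the 4 with the largest falls belong to Zfp972 and Zfp970.

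Summing the counts of all peaks of a gene gave 1 value per gene. On these sums edgeR called 17 of 292 Zfp genes, or 5.82%, against 10.2% of all genes. Of these, 9 were higher (3.08%, against 5.98%) and 8 were lower (2.74%, against 4.18%), and 10 of the 17 had no called peak of their own. The count was 11, 10 and 7 without control replicates 1, 2 and 3, 8 without cadmium replicate 2 and 3 without cadmium replicate 3. The share over all genes is not given for these fits. Zfp956, Zfp970 and Zfp972 kept their calls when any 1 of the 6 libraries was left out.

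The largest falls were in Zfp970 and Zfp972, genes of the same cluster on chromosome 2. Summed over its 4 peaks, Zfp970 had 199, 212 and 180 CPM in control samples 1 to 3 and 91.6, 71.4 and 55.4 CPM in cadmium samples 1 to 3. The groups stood well apart, with means of 197 ± 16.1 and 72.8 ± 18.1 CPM (SD, n = 3), a fall of 2.7-fold. The fitted log2 change was -1.43 (SE 0.18, adjusted p = 0.00256, edgeR). Each of its 4 peaks was called lower, among them a peak of 2010 bp at chr2:177474832-177476842 (mm10). That peak had 84.7, 78.5 and 69.2 CPM in control and 34.2, 22.3 and 16.5 CPM in cadmium, a log2 change of -1.67.

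Zfp972 fell further. Its 6 peaks summed to 197, 152 and 126 CPM in control and 71.0, 44.8 and 44.8 CPM in cadmium. The means were 159 ± 35.9 and 53.5 ± 15.1 CPM (SD, n = 3), a fall of 2.96-fold with no overlap (log2 change -1.57, SE 0.22, adjusted p = 0.00439). All 6 peaks were below 0 and 4 were called. The called peak at chr2:177904232-177904344 also carried the symbol Gm14327. The leading one, 1282 bp wide at chr2:177905890-177907172, had 74.3, 48.2 and 44.3 CPM in control and 21.8, 11.3 and 10.8 CPM in cadmium. Its log2 change of -1.93 was the lowest of all Zfp peaks (SE 0.29, adjusted p = 0.00537).

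Both genes belong to a run of 5 Zfp genes with peaks, Zfp973, Zfp970, Zfp972, Zfp971 and Zfp931, at chr2:176670522-178078425. Runs were defined as 5 or more Zfp genes with peaks and gaps of at most 1 Mb, which gave 17 runs with 146 genes. This run was singled out after its values were seen, so its counts are a description. All 21 Zfp peaks in it were below 0, with a median log2 change of -0.62, and 9 were called. Zfp973 summed to 76.9, 72.3 and 80.3 CPM in control and 71.4, 48.8 and 50.3 CPM in cadmium, a log2 change of -0.43 that was not called (adjusted p = 0.115), and all 6 of its peaks lay outside the RefSeq gene. Zfp971 had a log2 change of -0.44 (adjusted p = 0.341). Of the 2 Zfp931 peaks, the one at chr2:178078284-178078389 was called. It had 5.46, 4.98 and 4.87 CPM in control and 3.64, 2.46 and 2.11 CPM in cadmium (log2 change -0.90, adjusted p = 0.038).

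The shift was not limited to peaks with a Zfp symbol. The whole stretch of 1407.9 kb held 75 peaks, of which 73 were below 0 and 22 were called, all of them lower. This is 29.3% of its peaks, against 6.27% of all tested peaks. The 28 peaks without a gene symbol had a median log2 change of -0.68 with 8 called, and the 26 peaks of other genes, which carry predicted-gene names, had a median of -0.61 with 5 called. With Zfp970 and Zfp972 left out, 63 of 65 peaks were below 0 and 14 were called. Cadmium sample 1 stood nearest to the controls. The median over the 75 peaks was -0.25 in batch 1, -1.05 in batch 2 and -0.82 in batch 3. The count of called peaks was 53 without cadmium replicate 1, 10 without cadmium replicate 3 and 36 with the replicate block (background 8.48%). The share over all peaks is not given for the fits without 1 library.

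**Figure D3:**
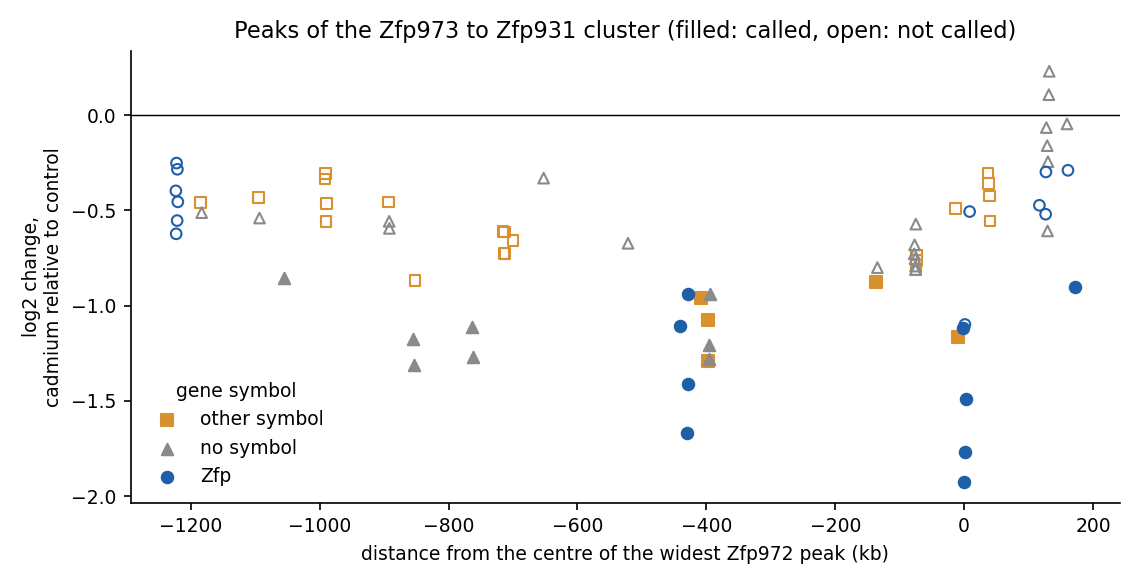
Log2 change, cadmium relative to control, of the 75 peaks of the chromosome 2 run against distance in kb from the centre of the widest Zfp972 peak. Marker shape gives the kind of gene symbol and filled markers are the 22 called peaks; 73 markers lie below 0, and the lowest belong to Zfp970 and Zfp972.

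The starts of these genes share sequence. The 250 bases before the RefSeq start of Zfp970, Zfp972 and Zfp971 (GRCm38.p6, mm10 coordinates, 5′ to 3′ on the gene's strand) are given with a run of 30 bases shared by all 5 genes in capitals.
Zfp970, chr2:177464492-177464741, + strand: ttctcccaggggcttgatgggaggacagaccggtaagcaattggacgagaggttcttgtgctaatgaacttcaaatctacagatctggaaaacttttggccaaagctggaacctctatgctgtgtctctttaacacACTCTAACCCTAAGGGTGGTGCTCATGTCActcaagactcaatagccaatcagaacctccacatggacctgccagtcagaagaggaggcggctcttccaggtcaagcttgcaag
Zfp972, chr2:177925651-177925900, - strand: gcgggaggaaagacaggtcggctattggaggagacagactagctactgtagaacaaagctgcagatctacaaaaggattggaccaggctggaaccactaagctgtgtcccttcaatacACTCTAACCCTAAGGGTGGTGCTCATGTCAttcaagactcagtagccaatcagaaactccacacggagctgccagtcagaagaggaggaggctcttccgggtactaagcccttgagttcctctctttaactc
Zfp971, chr2:178023034-178023283, + strand: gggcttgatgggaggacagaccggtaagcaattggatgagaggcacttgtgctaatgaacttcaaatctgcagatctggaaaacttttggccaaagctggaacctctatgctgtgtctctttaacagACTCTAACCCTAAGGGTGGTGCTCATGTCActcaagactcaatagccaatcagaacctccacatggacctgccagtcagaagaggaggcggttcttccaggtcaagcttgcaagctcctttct

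Aligned over the whole windows, the pairs of the 5 genes were between 52.5% (Zfp973 and Zfp931) and 90.7% (Zfp970 and Zfp971) identical. Zfp970 and Zfp972 were at 71.3%. The windows are shifted against each other, as the shared run ends from 53 (Zfp973) to 123 (Zfp931) bases before the start. These percentages fall with that shift as well as with base differences, so they do not rank the pairs by sequence. Zfp970 was called lower and Zfp971 was not called. The peaks of Zfp971 were also below 0, at log2 changes of -0.47, -0.52 and -0.30, with control means of only 3.49 to 4.90 CPM. The run of capitals, searched on the strand of each gene, ended 84, 102 and 93 bases before the start of Zfp970, Zfp972 and Zfp971. It was present in 32 of 32851 RefSeq promoter windows of this length, or 0.0974%. These windows belonged to 28 genes, of which 9 were Zfp genes and 12 were among the 22 genes of the chromosome 2 stretch in the table. The run was chosen as shared by the 5 Zfp genes, so these 5 are counted by construction. Counted by gene, the CCAAT box letters CCAAT, on either strand, were present for 16 of those 22 genes and for 172 of 336 Zfp genes in the table. Counted by window, they were in 33.8% of all windows. Similar genes can share or split reads, and the labels do not say how reads with several matches were counted, so the values of single genes in the run are uncertain to that extent.

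The other 16 runs lay nearer to 0, with a median over all peaks between -0.13 and 0.29. The highest median over Zfp peaks alone was 0.44, in the run from Zfp41 to Zfp7 on chromosome 15, where 2 of 13 Zfp peaks were below 0 and edgeR called none. On chromosome 13, the run from Zfp708 to Zfp273 held 19 Zfp genes with 63 Zfp peaks, of which 33 were below 0 and none was called by edgeR. On chromosome 6, the run from Zfp398 to Zfp775 leaned the other way: none of its 27 Zfp peaks was below 0, their median was 0.29, and 1 was called, in Zfp956. A run from Zfp871 to Zfp414 on chromosome 17 had a median of 0.29 over 27 Zfp peaks with 1 called, in Zfp763.

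**Figure D4:**
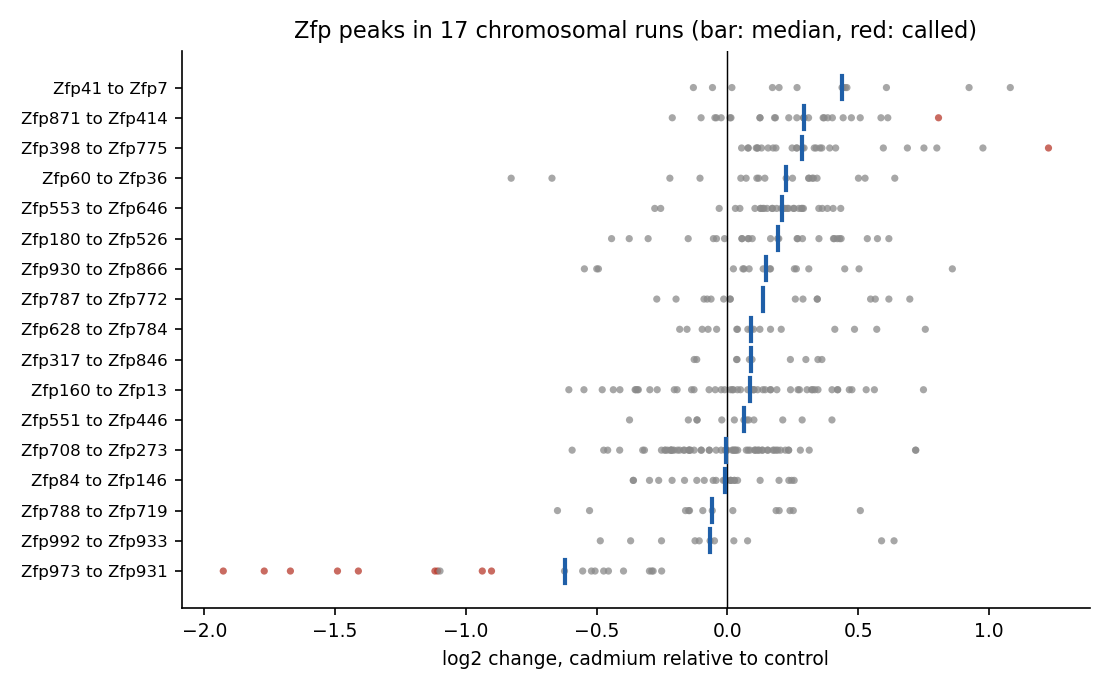
Log2 change, cadmium relative to control, of each Zfp peak in 17 chromosomal runs of Zfp genes, ordered by their median (blue bar); red points are called peaks. The run from Zfp973 to Zfp931 has all 21 points below 0, and the other runs hold 2 called peaks in all.

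Zfp91 fell along its whole length. Its 11 peaks had log2 changes from -0.89 to -0.36, and 4 were called. Summed, they gave 296, 362 and 288 CPM in control and 197, 207 and 179 CPM in cadmium, with no overlap. The means were 315 ± 40.9 and 194 ± 14.1 CPM (SD, n = 3). The log2 change was -0.70 ± 0.13 (SE), at an adjusted p of 0.0131. Without cadmium replicate 3 the adjusted p was 0.0758. The leading peak, 891 bp at chr19:12769672-12770563, had 104, 138 and 103 CPM in control and 69.7, 84.1 and 66.2 CPM in cadmium.

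The falls listed under Zfp697 lay outside that gene. Of the 11 peaks, 9 lay outside the RefSeq gene and 8 of these also carried the symbol of Hsd3b2 or Hsd3b3, hydroxysteroid dehydrogenases. All 3 called peaks were among the 9, and the 2 peaks inside Zfp697 had log2 changes of -0.37 and -0.22 and were not called. The called peak with the largest fall, at chr3:98724882-98725156, carried the symbol Zfp697 alone. It had 16.9, 16.5 and 14.6 CPM in control and 10.6, 7.23 and 7.75 CPM in cadmium (log2 change -0.91, adjusted p = 0.0159). The called peak at chr3:98742393-98742715 had 54.1, 53.7 and 52.3 CPM in control and 35.1, 37.1 and 33.4 CPM in cadmium (log2 change -0.60, adjusted p = 0.0281). The summed fall under this symbol (log2 change -0.56, adjusted p = 0.0225) therefore cannot be assigned to Zfp697 transcripts. It was not called without control replicate 2 or 3 or cadmium replicate 3 (adjusted p up to 0.124).

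Other genes were lower on their summed counts with no peak called alone. Zfp598, the ubiquitin ligase that marks collided ribosomes, had 61.0, 53.9 and 59.1 CPM in control and 39.4, 44.4 and 39.9 CPM in cadmium (log2 change -0.49, adjusted p = 0.0253). Zfp809, a KRAB protein that silences retroviruses, had 92.8, 109 and 82.8 CPM in control and 73.9, 64.0 and 51.7 CPM in cadmium (log2 change -0.58, adjusted p = 0.0462). In both genes the groups did not overlap and every peak was below 0. Zfp385b fell at a log2 change of -0.57 (adjusted p = 0.033), with all 11 peaks below 0, of which 2 were shared with another symbol. Zfp131, a BTB-domain protein, fell at -0.71 (adjusted p = 0.0281) with all 3 peaks below 0, of which 2 also carried another symbol. Each of these 4 calls was lost without certain single libraries. For Zfp598 these were control replicates 1 and 3 and cadmium replicates 1 and 3 (adjusted p up to 0.125), and for Zfp809 every library except cadmium replicate 1 (up to 0.184). For Zfp385b they were control replicates 1 and 2 and cadmium replicates 2 and 3 (up to 0.141), and for Zfp131 control replicate 2 and cadmium replicates 2 and 3 (up to 0.126). The replicate block also called the leading peaks of Zfp131 (adjusted p = 0.0442) and Zfp809 (adjusted p = 0.0452).

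Zfp956, Zfp691 and Zfp169 were higher in cadmium on their sums. Zfp956 summed to 1.91, 1.6 and 1.6 CPM in control and 3.52, 3.85 and 3.37 CPM in cadmium. The groups stood apart, with means of 1.71 ± 0.178 and 3.58 ± 0.244 CPM (SD, n = 3). The log2 change was 1.07 ± 0.19 (SE), at an adjusted p of 0.0109. Its called peak at chr6:47963878-47964033 rested on 32 to 48 counts per control sample and 78 to 107 per cadmium sample. Zfp691 summed to 16.1, 17.8 and 17.5 CPM in control and 26.3, 24.3 and 24.8 CPM in cadmium (log2 change 0.56, adjusted p = 0.0179). Zfp169 summed to 14.4, 17.9 and 20.5 CPM in control and 29.0, 23.4 and 29.5 CPM in cadmium (log2 change 0.63, adjusted p = 0.0366). In each of these 3 genes 1 peak was called as well. The sum of Zfp691 was not called without control replicate 3 or cadmium replicate 3 (adjusted p up to 0.0808). That of Zfp169 was not called without control replicate 1 or 2 or cadmium replicate 1 or 3 (adjusted p up to 0.150).

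The largest rise at a single peak was in Zfp608, at a log2 change of 1.53 (SE 0.37, adjusted p = 0.0383). It rested on few counts, 21, 57 and 40 in control and 133, 92 and 108 in cadmium, and the replicate block gave an adjusted p of 0.061. The other 5 peaks of Zfp608 were also above 0 and not called. Single peaks were also called higher in Zfp763, from 2.20 ± 0.345 to 3.85 ± 0.134 CPM, and in Zfp385c, from 3.30 ± 0.497 to 5.49 ± 0.743 CPM (SD, n = 3). The Zfp385c peak also carried the symbol Nkiras2.

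A further 6 genes rose on their sums without a called peak, and they are named because they are called, after their values were seen. They were Zfp775 (log2 change 0.72), Zfp41 (0.69), Zfp784 (0.60), Zfp316 (0.56), Zfp503 (0.49), a transcriptional repressor of development, and Zfp707 (0.42). Zfp131, above, was named in the same way. The highest level among the 6 was that of Zfp707, with 57.3, 58.1 and 58.8 CPM in control and 70.6, 82.5 and 79.6 CPM in cadmium. All peaks of Zfp775 also carried the symbol Gm38804, and all those of Zfp784 the symbols Zfp865 and Ccdc106, so these sums cannot be assigned to 1 gene. The sum under Zfp865, over 7 peaks, was not called (log2 change 0.13, adjusted p = 0.518). The adjusted p of the 6 lay between 0.0285 and 0.0454, and for each of the 6 leaving out control replicate 3 or cadmium replicate 3 ended the call, as did other libraries in each gene. The highest adjusted p of a gene over these fits lay between 0.0979 and 0.181. The replicate block also called the leading peak of Zfp316 (adjusted p = 0.0286).

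**Figure D5:**
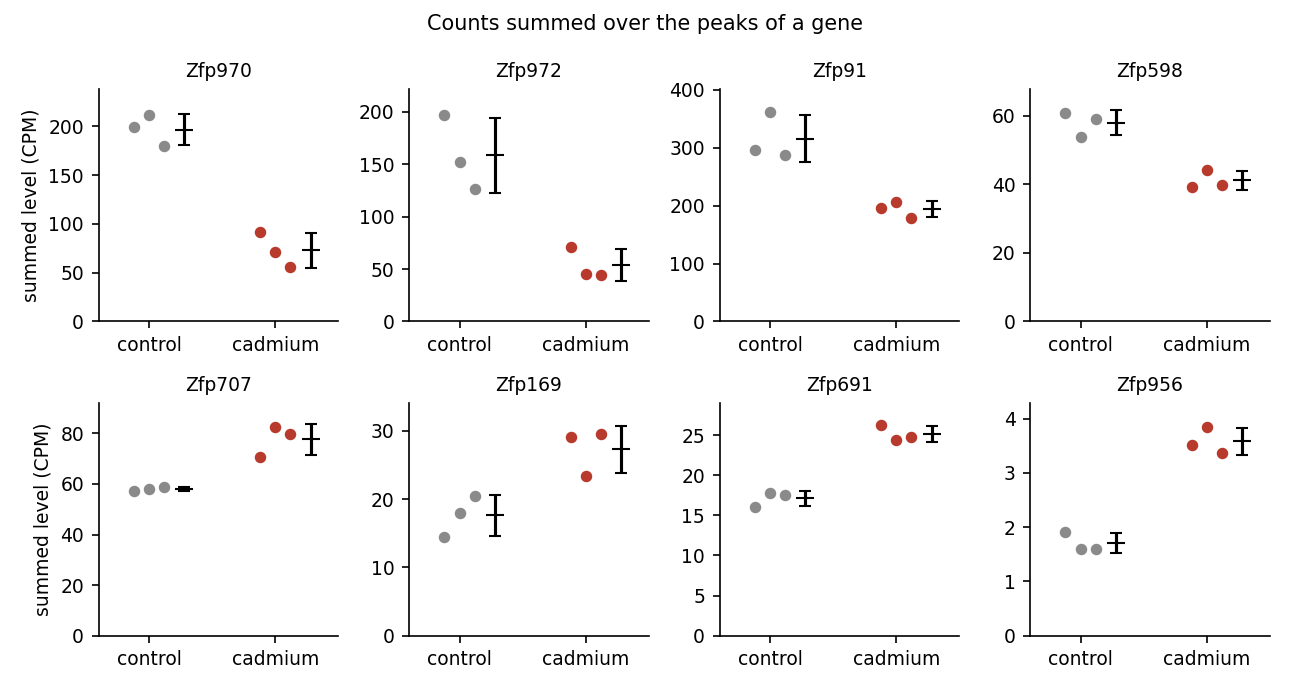
Level summed over the peaks of a gene, in CPM from 0, in each of 3 control and 3 cadmium samples for 8 Zfp genes called on their sums; the bar beside the points gives the mean and SD. Zfp970, Zfp972, Zfp91 and Zfp598 are lower and Zfp707, Zfp169, Zfp691 and Zfp956 higher in cadmium. The groups do not overlap in any of the 8 panels, but the genes were chosen as called, so this adds no support.

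The peaks of a Zfp gene shared a direction about as often as those of other genes. Of 140 Zfp genes with 3 peaks or more, 84 had all their peaks on 1 side of 0, or 60.0%, against 61.2% of 5538 other genes. Of the 84, 32 lay below 0 and 52 above. Zfp106 had all 11 peaks below 0, with 137, 148 and 121 CPM in control and 110, 108 and 99.0 CPM in cadmium, and was not called (log2 change -0.36, adjusted p = 0.0904). Zfp292 had all 10 peaks above 0, with 58.4, 61.3 and 52.4 CPM in control and 93.6, 71.1 and 71.2 CPM in cadmium (log2 change 0.45, adjusted p = 0.0696).

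Zfp genes of known role are given by their leading peaks. These lists are short, and with 6.27% of all tested peaks called, and 21.8% at an unadjusted p below 0.05, few or no calls do not set them apart. Among the CCCH proteins, which bind AU-rich mRNA and speed its decay, 3 of 4 were measured and edgeR called none, with 1 at an unadjusted p below 0.05. Zfp36 (tristetraprolin) had 96.2, 132 and 238 CPM in control and 104, 88.6 and 69.4 CPM in cadmium, and the groups overlapped. Its log2 change was -0.83 (adjusted p = 0.123), and DESeq2 called it (adjusted p = 0.0257). Zfp36l1 had 141, 156 and 159 CPM in control and 168, 147 and 179 CPM in cadmium, and the log2 change of Zfp36l2 was 0.07.

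Of 6 proteins known for silencing imprinted genes or retroelements, 4 were measured and edgeR called none at the leading peak, with 1 at an unadjusted p below 0.05. Zfp809 had a log2 change of -0.70 there (adjusted p = 0.0829). The imprint regulator Zfp445 had 75.1, 71.4 and 64.4 CPM in control and 67.9, 63.3 and 61.1 CPM in cadmium (log2 change -0.13). Zfp568 and Zfp708 had log2 changes of 0.03 and 0.31, and all 5 peaks of Zfp708 carried a further symbol. Of 10 transcription factors without a KRAB domain, 7 were measured and edgeR called none, with 1 at an unadjusted p below 0.05. They included Zfp148 (log2 change -0.53, adjusted p = 0.138), Zfp281 (-0.33) and Zfp217 (0.04). The leading peak of Zfp281 was 2669 bp wide and had 82.8, 127 and 97.5 CPM in control and 77.2, 87.8 and 78.3 CPM in cadmium.

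Of 11 proteins of RNA handling, translation and ubiquitination, 10 were measured and the leading peak of 1 was called, that of Zfp91. On summed counts 3 of the 10 were called lower, Zfp91, Zfp598 and Zfp385b. Of all genes, 4.18% were called lower on their sums and 10.2% in either direction. Calls on sums are counted for this list alone, so it is not set against the other lists. The ribosome assembly factor Zfp622 had a log2 change of 0.30 (adjusted p = 0.332) and the spindle protein Zfp207 one of 0.09. Over the 10 the median was -0.15, with 3 above 0. The leading peaks of the widest members also stayed uncalled, with log2 changes of 0.11 in Zfp62, -0.05 in Zfp871 and 0.11 in Zfp646.

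Peaks of the partners of KRAB zinc finger proteins were read in the same way. Of 30 listed symbols of corepressor and heterochromatin genes, with Fam208a an older symbol of the listed Tasor, 26 were measured, and their leading peaks had a median log2 change of -0.03 with 10 above 0. Trim28, the scaffold of the complex, had 5.69 ± 0.967 CPM in control and 5.61 ± 0.529 CPM in cadmium (SD, n = 3; log2 change -0.02). Setdb1 had a log2 change of 0.15 and Cbx5, a heterochromatin protein, one of -0.02. One gene of the 26 was called, Morc3, a nuclear ATPase, and with 6.27% of all peaks called this count does not set the list apart. Its leading peak had 12.3, 21.9 and 13.4 CPM in control and 9.27, 9.06 and 8.10 CPM in cadmium (log2 change -0.85, adjusted p = 0.0452). That call was lost when any library other than control replicate 1 was left out.

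The 6 libraries held between 40174736 and 52338612 counts in peaks, and the median Zfp peak had 1174 counts over all samples against 2251 for peaks of other genes. The biological coefficient of variation between replicates was 19.4%. Hepatocyte markers were high in every sample, with a summed level of 8507.9 to 9403 CPM in control and 8163 to 9382 CPM in cadmium for 7 of 8 markers measured, and edgeR called none (1 at an unadjusted p below 0.05). Of the markers of other cells, 4 were called, all higher in cadmium. Kupffer cell and macrophage markers (3 of 5 measured, Adgre1 and Cd68 not) summed to 83.4 to 111 CPM in control and 124 to 158 CPM in cadmium, and Cd5l and Csf1r were called. Stellate cell markers (5 of 5 measured) summed to 62.7 to 82.3 and 91.3 to 114 CPM, with Col1a1 called, and endothelial markers (4 of 5) to 69.8 to 111 and 77.3 to 113 CPM, with Lyve1 called. The endothelial sums overlapped between the groups. Biliary markers (3 of 5, Krt7 and Krt19 not measured) summed to 22.4 to 29.6 and 18.7 to 66.7 CPM, and edgeR called none (2 at an unadjusted p below 0.05). Lymphocyte markers (2 of 5) summed to 1.38 to 2.41 and 2.46 to 3.58 CPM, and red cell markers (2 of 4) to 45.7 to 77.9 and 40.0 to 133 CPM, the highest in cadmium sample 1. No lymphocyte or red cell marker was called by edgeR, and none had an unadjusted p below 0.05. The part of these cell types in the Zfp changes was not tested.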

How the data were processed

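Livers of 3 control and 3 cadmium-treated mice were profiled by MeRIP-seq. The submitters' processing notes list MACS2 2.1.1, DESeq2 4.1.0 (a number that may belong to another program), STAR 2.7.1a, cutadapt 1.1.8 and SAMtools 1.3.1, with mm10 as the genome. The labels do not say whether peaks were called per sample or pooled, how reads with several matches were counted, or whether strand was used. The authors deposited raw counts per peak, which have no normalization as far as the values show, and also a log2 fold change and a p-value and adjusted p-value per peak, used here only for comparison. The column headers are library numbers shared by the IP and input library of a sample, and reading them as IP is an assumption.

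The test was that of edgeR 4.0.16, run under R 4.3.3 on the counts (TMM, quasi-likelihood F test, minimum count 10, minimum total 15, Benjamini-Hochberg adjustment over all peaks, called at adjusted p below 0.05), and again on counts summed per gene symbol over all genes. CPM are TMM-scaled and, for sums, relative to the summed table. Widths are end minus start, and coordinates are as deposited. DESeq2 1.42.0, other normalizations and filters, and leaving out libraries were alternatives. On simulated counts with known changes the fit recovered 60% of 2-fold rises, 48% of 2-fold falls and 100% of 4-fold changes. Of its 169 calls there, 15 were false, while 2325 peaks were called in the data. With fewer calls the adjusted threshold is stricter, so these recovery rates are not those of the data. Changes of 2-fold can still be missed. The labels' batch numbers pair the samples: the samples' deviations around their group mean had correlations of 0.146, 0.214 and 0.174 for equal numbers and from -0.173 to 0.0163 otherwise. The labels do not say whether each library is 1 animal, so p-values measure the spread between these samples. Over all peaks, scaled by total counts, no replicate pair agreed within sampling noise (chi-square per degree of freedom at least 31.9). The 2 largest peaks are included, so this value does not show how well a typical peak agreed.

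Members and gene lists were chosen with earlier results of these data known. Genes were named by rule: called peaks, the 5 highest leading peaks per kb in control, the 5 genes with most peaks, the 3 widest peaks, and lists of known role. Promoter sequences and gene positions are RefSeq's, GRCm38.p6, where 290 of the 292 genes matched. Peak sequences, motifs in peaks and exon positions were not analysed here.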

Additional observations from a re-analysis of the deposited data

How the results depend on the processing

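The number of Zfp peaks called, 22 in all with 6 higher and 16 lower, was 52 with DESeq2 (17 higher, 35 lower), 38 with the replicate block (11 higher, 27 lower) and 14 once peaks under the median count were left out (1 higher). Upper-quartile normalization gave 10 higher. Leaving out 1 library gave 5 to 19 called, 0 to 4 higher and 5 to 17 lower. The number of Zfp genes called on sums, 17, was 27 with DESeq2 and 3 to 18 without 1 library. Shares over all peaks or genes are not given for the upper-quartile fit, the DESeq2 fit of genes and the fits without 1 library. Alternatives for the chromosome 2 stretch were chosen after seeing the data. The stretch had 39 called peaks with DESeq2 (background 10%), 36 with the block (background 8.48%) and 10 to 53 without 1 library. The corepressor count was 0 to 1 without 1 library. The block ended 1 call among the peaks named, that of Zfp608, and no call of a gene on its sum.

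Leaving out 1 library turned the sign of 7 named leading peaks, none of them called: Zfp217 (-0.081 to 0.201), Zfp219 (-0.198 to 0.0189), Zfp36l2 (-0.0684 to 0.234), Zfp384 (-0.155 to 0.129), Zfp568 (-0.108 to 0.213), Zfp64 (-0.0739 to 0.139) and Zfp871 (-0.138 to 0.0417). Upper-quartile normalization gave 0.0102 for Zfp384. That scaling also ended the calls of the Zfp91 leading peak (adjusted p = 0.0561), of 1 Zfp697 peak (0.0553) and of the Zfp809 sum (0.0594). The cause was not tested. The level ratio, the difference in share of counts between groups and the median change moved by less than the spread between replicates under the alternatives run. Widths and peaks per gene come from 1 peak set and have no spread between replicates. Their ratios to other genes were judged by a fixed fold limit, which they did not pass. Leaving out peaks with several symbols does not change a fit of a single peak and was not run for those. Without the 2 largest peaks the share itself was 0.888% in control and 0.858% in cadmium. Counts are fewest in the lowest of the 4 level groups, which holds 44.0% of the Zfp peaks.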
